A study of Mus musculus with 16 samples.

Results

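Mesothelium is the flat cell layer that lines the body cavities, and the epicardium is its counterpart on the heart, continuing over the roots of the great vessels. Epicardial cells of the embryo can leave the layer, become mesenchymal and give rise to fibroblasts and mural cells. Known marks of the layer are the transcription factor Wt1, the cell-surface protein mesothelin, simple keratins and uroplakins, together with local synthesis of retinoic acid, a diffusible signal made from vitamin A. The 10 genes described here are Wt1, Gpm6a, Msln, Upk3b, Upk1b, Tcf21, Tbx18, Aldh1a2, Krt19 and Lrrn4. They were chosen by name as marks of mesothelium and epicardium, and all 10 of the 18193 genes measured were found on the array, by 17 probe sets whose annotation gave that symbol alone.

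RNA came from mice aged 30 days. The groups were ascending aorta of Eln+/+ mice, ascending aorta of Eln+/- mice (1 of the alleles of the elastin gene inactive), aortic valve of Eln+/+ mice and aortic valve of Eln+/- mice, with 4 arrays each and 16 in all. Valve pieces held cusp, annulus and root, so tissue outside the cusp was part of each. Every array had RNA of 1 specimen, amplified from a small amount; no sex was given, and nothing states whether an aorta and a valve of the same number shared a mouse. Each value below is a log2 ratio of a probe set on 1 array to that probe set's median over the 16 arrays, so 0 is the median, 1 is 2-fold above it, and no absolute level is known. An exception is the second probe set of Tcf21, whose median ratio lay below 1; what such a probe set was divided by is not known. Levels of different genes were therefore not compared with each other. In pieces of whole tissue, fewer cells of a type and less RNA per cell cannot be told apart.

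Elastin itself, the targeted gene, was checked first. Eln ranged from 0.05 to 0.48 in aorta Eln+/+ and from -0.64 to 0.13 in aorta Eln+/-. In the valve it ranged from -1.19 to 0.04 in Eln+/+ and from -2.62 to -0.81 in Eln+/-, so the genotypes overlapped in both tissues. Xist minus the mean of the Y-linked genes lay between 0.27 and 0.82 on all 8 Eln+/- arrays. Among Eln+/+ arrays it was 0.66 on aorta replicate 4 and 0.84 on valve replicate 2, and between -11.05 and -10.65 on the other 6. Genotype and sex were thus largely joined, and the part of sex in the genotype results was examined only with this signal as a covariate. By Xist minus Y, aorta and valve were of opposite sex for Eln+/+ replicates 2 and 4, so those did not share a mouse. Heart muscle markers, a list of 18 genes, averaged -2.74 ± 1.04 (SD, n = 4) in aorta Eln+/+, -2.70 ± 1.21 in aorta Eln+/-, 0.95 ± 0.43 in valve Eln+/+ and 1.84 ± 0.40 in valve Eln+/-.

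Upstream DNA was taken from RefSeq promoter records of mouse build GRCm38.p6, which matched 6 of the 10 genes with 7 windows: Gpm6a (2 start sites), Upk3b, Tcf21, Tbx18, Aldh1a2 and Lrrn4. The 250 bases before the start are printed 5′ to 3′ in the direction of the gene. Shown are 3 windows that held GGAATG, of genes whose values moved together across arrays (Gpm6a at its first start site, Upk3b and Lrrn4). The 2 transcription factors that differed between the tissues (Tcf21 and Tbx18) are also shown. Aldh1a2, which moved with those 3 genes, and the second Gpm6a start site are not shown, and their windows held no GGAATG. Capitals mark matches on either strand to GGAATG, the core site of TEAD factors, or to AGATAA, a site of zinc finger factors such as Gata4; these letters do not overlap any other motif searched. Windows lie at chr8:54779184-54779433 on the plus strand (Gpm6a), chr5:136038246-136038495 plus (Upk3b), chr2:132880863-132881112 minus (Lrrn4), chr10:22820144-22820393 minus (Tcf21) and chr9:87731261-87731510 minus (Tbx18).
Gpm6a: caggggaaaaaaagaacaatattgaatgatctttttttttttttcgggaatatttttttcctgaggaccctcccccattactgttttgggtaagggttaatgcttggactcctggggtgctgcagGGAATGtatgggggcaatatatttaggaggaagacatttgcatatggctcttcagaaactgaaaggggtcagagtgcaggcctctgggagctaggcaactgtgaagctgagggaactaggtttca
Upk3b: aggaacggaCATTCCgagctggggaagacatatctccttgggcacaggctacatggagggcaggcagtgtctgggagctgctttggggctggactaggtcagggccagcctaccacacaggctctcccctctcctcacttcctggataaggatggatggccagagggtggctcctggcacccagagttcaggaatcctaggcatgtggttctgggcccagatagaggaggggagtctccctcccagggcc
Lrrn4: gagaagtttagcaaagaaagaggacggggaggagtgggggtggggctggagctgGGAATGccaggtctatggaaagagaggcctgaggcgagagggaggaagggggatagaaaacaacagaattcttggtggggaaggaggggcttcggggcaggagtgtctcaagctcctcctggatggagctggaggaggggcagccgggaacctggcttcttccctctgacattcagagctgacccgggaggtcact
Tcf21: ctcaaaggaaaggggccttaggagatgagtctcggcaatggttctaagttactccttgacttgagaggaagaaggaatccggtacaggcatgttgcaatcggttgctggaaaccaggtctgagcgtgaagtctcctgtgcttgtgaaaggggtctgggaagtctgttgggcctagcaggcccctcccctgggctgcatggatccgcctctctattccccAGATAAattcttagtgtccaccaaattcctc
Tbx18: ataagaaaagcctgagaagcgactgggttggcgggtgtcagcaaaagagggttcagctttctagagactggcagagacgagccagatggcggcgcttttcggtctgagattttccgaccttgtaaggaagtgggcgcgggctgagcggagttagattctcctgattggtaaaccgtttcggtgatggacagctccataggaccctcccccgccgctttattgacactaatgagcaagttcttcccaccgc

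GGAATG, or its reverse CATTCC, occurred in 3 of the 7 windows, those of Gpm6a, Upk3b and Lrrn4, 125, 241 and 196 bases before the start. It occurred in 12.6% of the 32851 promoter windows of the same length in the genome. AGATAA was found 31 bases before the Tcf21 start and in 9.99% of all windows. The second Gpm6a start site had the promoter motif TATAAA on the reverse strand, 211 bases upstream; 12.4% of all windows held it. None of the 7 windows held GTGGGAG, a WT1-type site (8.25% of all windows), GGTGTG, a T-box factor site (16.3%), or CAGCTG, an E-box (13% of all windows), and the Tbx18 and Aldh1a2 windows had none of the 6 motifs. A match describes the letters of these windows and was not tested for binding.

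Across all groups the genes behaved in 2 ways. Tcf21 and Tbx18 varied mostly between the groups: differences between the 4 groups held 72.8% of the variance of Tcf21 and 77.7% of that of Tbx18. The other genes varied mostly inside the groups, with shares of 45.2% for Wt1 and 30.5% for Gpm6a. The remaining 6 had 15.5% for Upk3b, 11.7% for Upk1b, 10.6% for Msln, 8.10% for Krt19, 2.36% for Lrrn4 and 1.4% for Aldh1a2. Means of groups this small differ by chance as well, and the share over all genes was not computed.

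**Figure D1:**
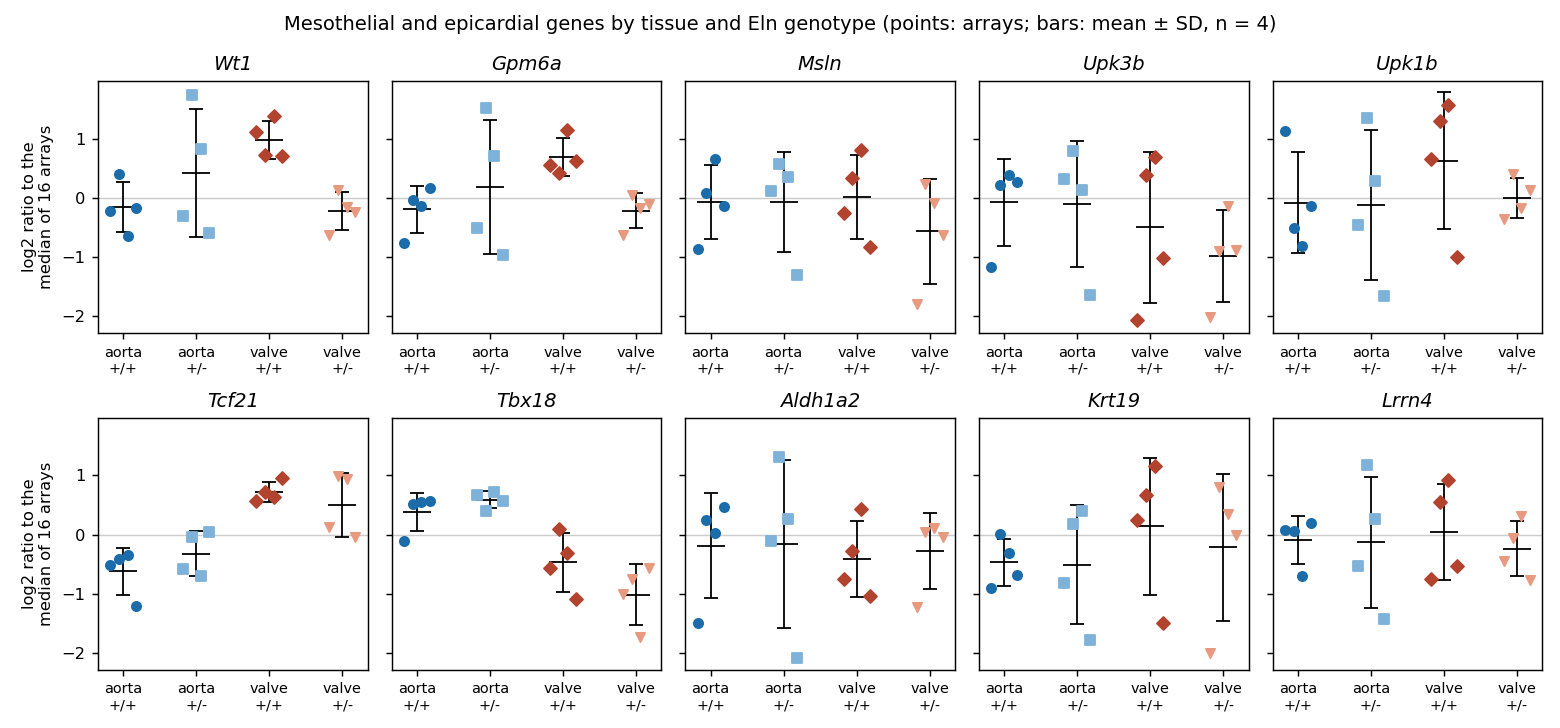
Log2 ratio to the median of the 16 arrays (vertical axis, 1 panel per gene) for each array of aorta and valve of both Eln genotypes; points are arrays and bars are mean ± SD, n = 4. By group mean Tcf21 lay higher and Tbx18 lower in the valve. Wt1 and Gpm6a of valve Eln+/+ lay above all arrays of valve Eln+/-, while the other 6 genes overlapped between groups.

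Among the transcription factors, Wt1, a zinc finger protein of mesothelium and epicardium, was highest in valve Eln+/+. Its values in replicates 1 to 4 were 1.12, 0.73, 1.38 and 0.71 in valve Eln+/+ and -0.63, 0.13, -0.15 and -0.24 in valve Eln+/-. In the aorta they were -0.21, 0.40, -0.64 and -0.17 in Eln+/+ and -0.30, 1.75, 0.82 and -0.59 in Eln+/-. Every valve Eln+/+ array thus lay above every valve Eln+/- and every aorta Eln+/+ array, while aorta Eln+/- had both high and low arrays and overlapped all other groups. By group mean the order was valve Eln+/+ (0.98 ± 0.32, SD, n = 4), aorta Eln+/- (0.42 ± 1.07), aorta Eln+/+ (-0.16 ± 0.43) and valve Eln+/- (-0.22 ± 0.32), and each pair of neighbours in that order overlapped.

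Tcf21, a basic helix-loop-helix factor of epicardium and of the fibroblasts it yields, was the member that rose most from aorta to valve. Its values were -0.51, -0.42, -0.34 and -1.21 in aorta Eln+/+ and 0.56, 0.71, 0.63 and 0.96 in valve Eln+/+. The Eln+/- arrays read -0.58, -0.04, -0.70 and 0.04 in aorta and 0.13, 0.99, 0.95 and -0.04 in valve. The tissues did not overlap in Eln+/+, whereas in Eln+/- they overlapped through valve replicate 4. Its second probe set had a median ratio of 0.804, so its 0 is not its median, and it correlated only at r = 0.31 with the one shown over the 16 arrays; it gave 0.15 for valve minus aorta in Eln+/+, with an adjusted p of 0.763 in the limma fit.

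Tbx18, a T-box factor of epicardium and of mural cells, had the reverse order. Its values were -0.11, 0.51, 0.54 and 0.56 in aorta Eln+/+ and 0.67, 0.39, 0.72 and 0.57 in aorta Eln+/-. The valve gave -0.56, 0.10, -0.31 and -1.09 in Eln+/+ and -1.0, -0.75, -1.74 and -0.57 in Eln+/-. All aorta Eln+/- arrays were above all valve Eln+/- arrays, and in Eln+/+ aorta replicate 1 fell within the valve range. Both Tbx18 probe sets followed each other (r = 0.88, 16 arrays), and on the second the tissues did not overlap in either genotype.

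Gpm6a, a neuronal membrane glycoprotein that also marks mesothelium, followed Wt1. It read 0.55, 0.42, 1.15 and 0.61 in valve Eln+/+ against -0.63, 0.04, -0.17 and -0.11 in valve Eln+/-. The aorta values were -0.76, -0.05, -0.13 and 0.17 in Eln+/+ and -0.51, 1.51, 0.70 and -0.96 in Eln+/-. As with Wt1, the valve genotypes did not overlap. For Gpm6a, aorta Eln+/- had both the highest and the lowest array of all 16. Its other probe set, with r = 0.78 to the first, had overlapping valve genotypes.

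Msln encodes mesothelin, a surface protein anchored by a lipid. Its values were -0.86, 0.08, 0.66 and -0.14 in aorta Eln+/+ and 0.12, 0.56, 0.36 and -1.31 in aorta Eln+/-. In the valve they were -0.25, 0.34, 0.81 and -0.83 in Eln+/+ and -1.79, 0.23, -0.09 and -0.63 in Eln+/-. All 4 groups overlapped, and the 2 lowest arrays were aorta Eln+/- replicate 4 and valve Eln+/- replicate 1.

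Upk3b and Upk1b encode uroplakins, membrane proteins of urothelium that mesothelium also makes. Upk3b gave -1.18, 0.22, 0.38 and 0.26 in aorta Eln+/+ and 0.31, 0.80, 0.12 and -1.65 in aorta Eln+/-. Its valve values were -2.06, 0.39, 0.69 and -1.01 in Eln+/+ and -2.02, -0.90, -0.14 and -0.88 in Eln+/-. Here too the groups overlapped, and on this probe set replicate 1 was low in 3 of them. A second Upk3b probe set had r = 0.85 to the one shown. In valve Eln+/+ it read -0.58 on replicate 1 and was lowest on replicate 4, at -1.17. Upk1b ranged from -0.81 to 1.13 in aorta Eln+/+, from -1.66 to 1.35 in aorta Eln+/-, from -1.0 to 1.57 in valve Eln+/+ and from -0.36 to 0.40 in valve Eln+/-. Upk1b had 4 probe sets, and the other 3 correlated with the one shown at 0.96, 0.81 and 0.49; those marked x by the manufacturer may bind related transcripts.

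Aldh1a2 is the enzyme that makes retinoic acid in epicardium and mesothelium. It ranged from -1.49 to 0.46 in aorta Eln+/+, from -2.09 to 1.31 in aorta Eln+/-, from -1.04 to 0.43 in valve Eln+/+ and from -1.23 to 0.11 in valve Eln+/-. Krt19, a simple-epithelial keratin, ranged from -1.79 to 0.40 in aorta Eln+/- and from -2.01 to 0.80 in valve Eln+/-, and between -0.91 and 0.00 in aorta Eln+/+ and -1.50 and 1.15 in valve Eln+/+. Lrrn4, a leucine-rich repeat membrane protein, ranged from -0.70 to 0.19 in aorta Eln+/+, from -1.42 to 1.17 in aorta Eln+/-, from -0.75 to 0.91 in valve Eln+/+ and from -0.77 to 0.31 in valve Eln+/-. For these 3 genes every group overlapped every other.

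The genotype comparison asked whether these genes differed between Eln+/- and Eln+/+ mice in each tissue. In the valve 9 of the 10 genes were lower in Eln+/- and Aldh1a2 alone was higher, with a median log2 difference of -0.52 against 0.03 over all genes, of which 45% were lower. None of the 10 passed an adjusted p of 0.05 in the limma fit over all probe sets, and 0% of the 18193 genes did; 2 members had an unadjusted p under 0.05, where 9.48% of all genes had one. Wt1 differed by -1.21 ± 0.40 (SE; 95% interval -2.05 to -0.37), a ratio of 0.433, with a limma adjusted p of 0.424; it was lower in 4 of 4 Eln+/- arrays than in any Eln+/+ array. Gpm6a differed by -0.90 ± 0.41 (ratio 0.536, limma adjusted p 0.558), again with no overlap. For both the exact two-sided permutation test gave 0.0286, the smallest p that 70 assignments of 4 and 4 arrays can give. Groups that do not overlap in either direction were found for 5.33% of all genes.

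The other valve differences had 95% intervals that included 0 for the probe sets shown. Tbx18 differed by -0.55 (95% interval -1.11 to 0.01) and Upk1b by -0.63 (-1.93 to 0.66), while its probe set of lowest likeness to the one shown gave -0.81 (-1.46 to -0.16) with no overlap between genotypes and a limma adjusted p of 0.471. Msln differed by -0.58 (-1.62 to 0.46) and Upk3b by -0.49 (-1.80 to 0.83). Krt19, Lrrn4, Tcf21 and Aldh1a2 differed by -0.36, -0.28, -0.21 and 0.13, with intervals that included 0. These p-values set a difference against the spread between arrays of different specimens.

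Markers of other cells moved with valve genotype. All 18 heart muscle genes were higher in valve Eln+/- (median 0.82), 9 of 10 smooth muscle genes were lower (median -0.85) and 10 of 12 fibroblast genes were lower (median -0.35), none of them past the adjusted threshold. With the heart muscle mean as a covariate over the 8 valve arrays, Wt1 was -1.05 (limma adjusted p 0.87) and Gpm6a -0.81 (0.939). The median over the 10 genes became 0.04, and Msln, Upk1b, Tbx18 and Krt19 changed sign. That mean ran from 0.51 to 1.53 in valve Eln+/+ and from 1.46 to 2.35 in valve Eln+/-. The covariate thus nearly split the genotypes, and the fit could hardly separate the 2. With Xist minus Y as a covariate Wt1 was -1.06 (limma adjusted p 0.752), Gpm6a -0.94 (0.792) and the median -0.83. Among valve Eln+/+ arrays only replicate 2 had a signal like that of Eln+/-, so this fit could hardly separate sex from genotype. The median was -0.20 without valve Eln+/- replicate 1, and -0.29, -0.28 and -0.81 without valve Eln+/+ replicate 2, 3 and 4.

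In the aorta the genotypes were not separated for any member. Of the 10 genes 5 were higher and 5 lower in Eln+/-, the median difference was 0.01 against -0.02 over all genes, and none passed the adjusted threshold, which 0% of all genes passed. No member had an unadjusted p under 0.05, and none had groups that did not overlap, as 2.78% of all genes had. Wt1 differed by 0.57 (95% interval -0.27 to 1.42), Gpm6a by 0.38 (-0.48 to 1.24), Tcf21 by 0.30 (-0.25 to 0.85) and Tbx18 by 0.21 (-0.35 to 0.77), and adjusted p-values of the limma fit ran from 0.897 to 0.999. Without aorta Eln+/- replicate 2 the Wt1 difference was 0.13 and that of Gpm6a -0.06, and without replicate 4 they were 0.91 and 0.76. The median over the 10 genes was -0.24, -0.11 and 0.44 without aorta Eln+/- replicate 2, 3 and 4. The other 6 lay between -0.04 and 0.03 by the probe sets shown, with intervals that included 0. The second Upk3b probe set gave -0.33 (95% interval -1.51 to 0.86).

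**Figure D2:**
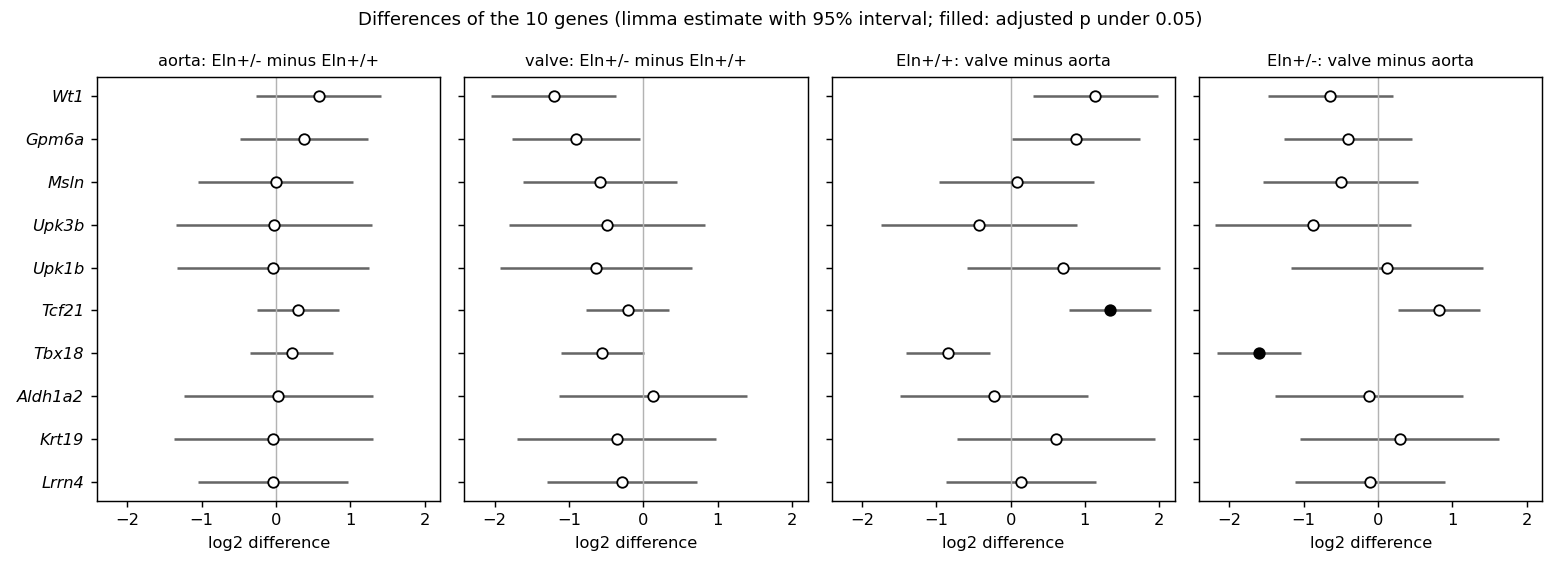
Log2 differences (horizontal axes) of the 10 genes in 4 comparisons, with 95% intervals from the limma fit; filled points have an adjusted p under 0.05. The filled points are Tcf21, higher in the valve of Eln+/+ mice, and Tbx18, lower in the valve of Eln+/- mice.

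Whether genotype acted differently in the 2 tissues was tested as the interaction. The genotype difference was lower in valve than in aorta for 9 of the 10 genes, with a median of -0.55 against 0.04 over all genes. None passed, as 0% of all genes passed, and the lowest adjusted p of the limma fit was 0.619, for Wt1 at -1.78 ± 0.56 (SE). Single arrays moved the median: it was -0.26 and -0.87 without aorta Eln+/- replicate 2 and 4, -0.30 and -0.87 without valve Eln+/+ replicate 3 and 4, and -0.28 without valve Eln+/- replicate 1. Gpm6a gave -1.28, Tbx18 -0.76 and Tcf21 -0.51 in this comparison. The effects on Wt1 in valve and aorta had opposite signs, but a difference between them did not pass after adjustment.

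The tissue comparison set valve against aorta within each genotype. In Eln+/+ mice 7 of the 10 genes were higher in the valve (median 0.37, against -0.05 over all genes) and 1 passed the adjusted threshold, as did 1.32% of all genes. The median was 0.20, 0.06 and 0.63 without valve Eln+/+ replicate 2, 3 and 4. The gene that passed was Tcf21, which was higher by 1.34 ± 0.26 (SE), 2.52-fold; the limma fit gave an adjusted p of 0.0204 and the exact permutation test 0.0286. The call was lost without aorta Eln+/+ replicate 1 or 4 or valve Eln+/+ replicate 1 or 4, when the limma adjusted p was 0.0518, 0.0610, 0.0551 and 0.0813. With the mean of its 2 probe sets in place of the one shown, Tcf21 was higher by 0.74 (limma adjusted p 0.0204). By the probe sets shown, the groups did not overlap for 3 members, Tcf21, Wt1 and Gpm6a, and for 8.45% of all genes. On the other probe sets of Tcf21 and Gpm6a the groups overlapped. Wt1 was higher by 1.14 (limma adjusted p 0.248) and Gpm6a by 0.88 (0.412), neither past the threshold, and Tbx18 stood at -0.84 (0.190). The second Tbx18 probe set gave -0.70 (limma adjusted p 0.138), with no overlap between the tissues.

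In Eln+/- mice 7 of the 10 genes were lower in the valve (median -0.26, against -0.003 over all genes) and again 1 passed, as 7.06% of all genes did. The sign of the median turned without aorta Eln+/- replicate 2 (0.18), and it was -0.11 and -0.78 without replicate 3 and 4 and -0.07 without valve Eln+/- replicate 1. Tbx18 fell by 1.60 on the log2 scale (SE 0.26), to a ratio of 0.329; the limma fit gave an adjusted p of 0.00210 and the exact permutation test 0.0286. Its second probe set also passed, at -1.15 with a limma adjusted p of 0.00274. The call held in all alternatives tried, with adjusted p-values from 0.000468 to 0.0358. Tbx18 was also the 1 member whose groups did not overlap, which held for 12.1% of all genes. Tcf21 stood at 0.83 (95% interval 0.27 to 1.38; limma adjusted p 0.0777), Wt1 at -0.64 and Upk3b at -0.88, without a call. Leaving out single arrays gave -0.98 to -0.20 for Wt1 and -1.39 to -0.53 for Upk3b. With all arrays, the second Upk3b probe set gave -0.31. Heart muscle genes were higher in the valve for 18 of 18 in both genotypes, with 13 called in Eln+/+ and 18 in Eln+/-; their part in the tissue differences was not tested.

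Inside the groups the 8 genes other than Tcf21 and Tbx18 moved together from array to array. After each group's mean was subtracted, Pearson r over the 16 arrays ran from 0.40 to 0.91 for the 28 pairs of these genes, with a median of 0.68. For the 16 pairs of Tcf21 or Tbx18 with them, r ran from -0.14 to 0.34, with a median of 0.08. Tcf21 and Tbx18 had r = -0.43 with each other. Msln and Krt19 were the closest pair (0.91), followed by Wt1 and Gpm6a (0.89) and Gpm6a and Aldh1a2 (0.88). These are descriptions; the points share arrays and their RNA quality and dissection. Without the 2 arrays farthest from the median, aorta Eln+/- replicates 2 and 4, the median over the 28 pairs was 0.54 and the range 0.07 to 0.89.

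**Figure D3:**
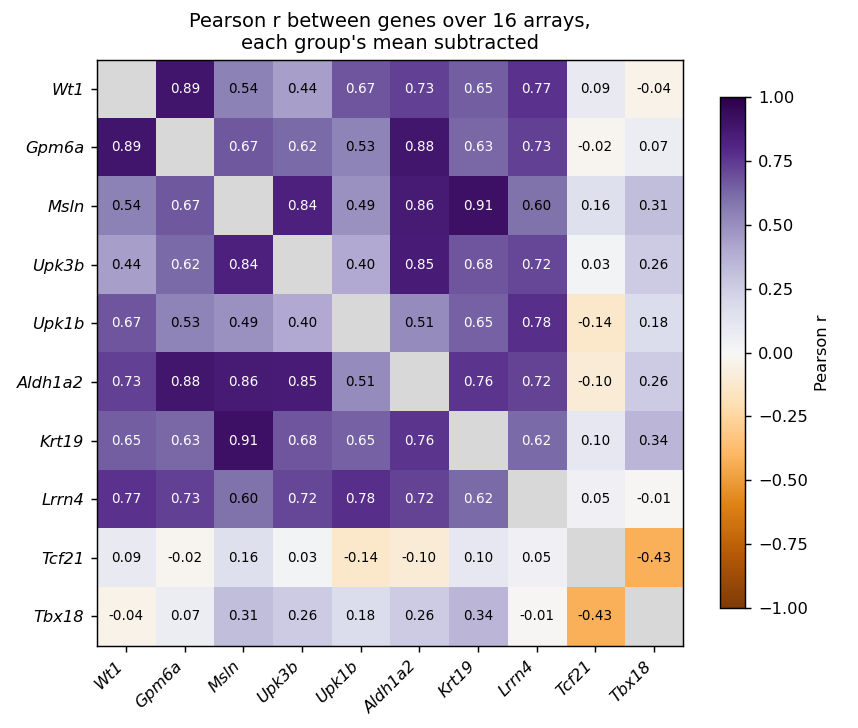
Pearson r between each pair of genes over 16 arrays after subtraction of group means (color scale from -1 to 1). The 8 genes from Wt1 to Lrrn4 form a block with r of 0.40 or more, while Tcf21 and Tbx18 have r of -0.14 to 0.34 with them and -0.43 with each other.

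Some arrays were the highest or lowest of their group for most of the 10 genes. Aorta Eln+/- replicate 2 was the highest of its group in 7 of the 10 genes and replicate 4 the lowest in 8. Valve Eln+/+ replicate 3 was highest in 8 genes and replicate 4 lowest in 6. Valve Eln+/- replicate 1 was lowest in 7, valve Eln+/- replicate 2 highest in 6, and aorta Eln+/+ replicate 1 lowest in 6. The mean of the 8 genes ran from -1.43 to 1.08 in aorta Eln+/- and from -0.53 to 0.06 in aorta Eln+/+. In the valve it ran from -0.57 to 1.01 in Eln+/+ and from -1.14 to 0.09 in Eln+/-, so all groups overlapped and the widest span was that of aorta Eln+/-.

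Other tissue also differed on those arrays. T cell and thymocyte markers averaged 1.71 on aorta Eln+/- replicate 2 and 0.93 on replicate 4, against -0.20 to 0.09 on the other 2 arrays of that group. Macrophage markers were 0.98 on replicate 2 and -1.06 on replicate 4. Adipocyte markers were 2.38 and smooth muscle markers -0.88 on replicate 2, against 0.38 to 0.97 and 0.28 to 0.36 on the other 3 arrays of the group. The macrophage mean had r = 0.62 with the mean of the 10 genes after subtraction of group means, and the airway and thyroid epithelium mean 0.46. For fibroblast, adipocyte, T cell and heart muscle markers r was 0.33, 0.30, 0.25 and 0.24. Negative values included -0.14 for smooth muscle and -0.35 for Schwann cells and neurons. The part of these tissues in the pattern was not tested.

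**Figure D4:**
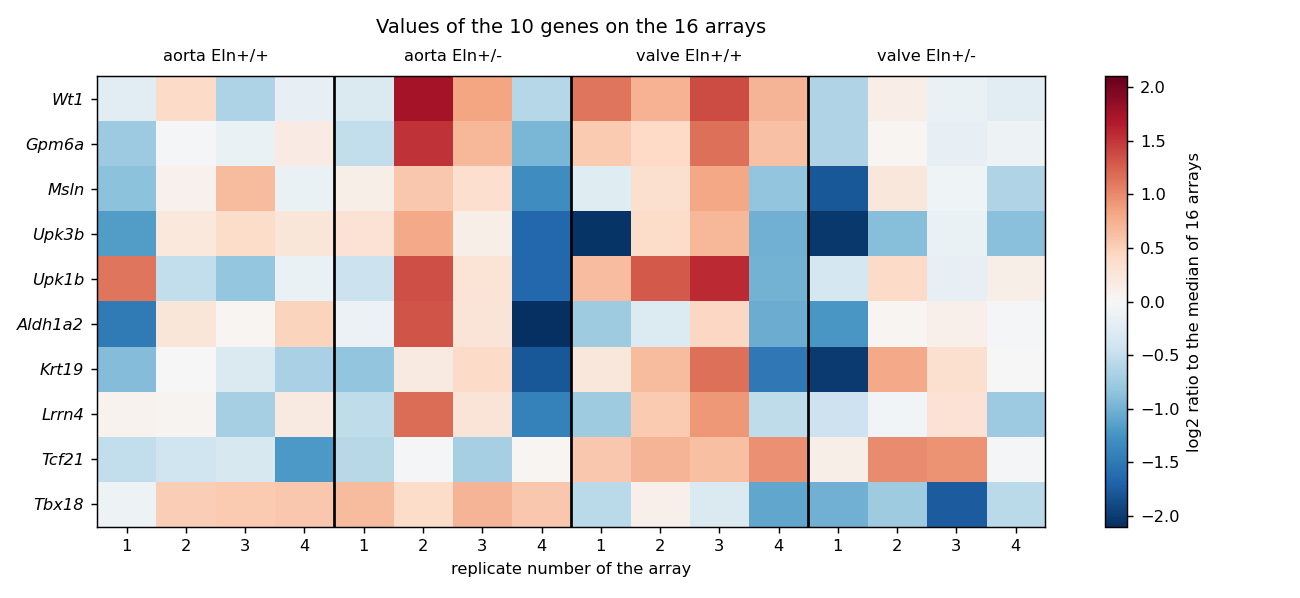
Log2 ratio of each of the 10 genes (rows) on each of the 16 arrays (columns, by group and replicate number). The upper 8 genes rise and fall together on the same arrays, such as high on aorta Eln+/- replicate 2 and low on replicate 4. Tcf21 and Tbx18 mostly follow the tissue, with some overlap.

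A further 18 genes of mesothelium, outside the 10, showed the same arrays as high and low. Their mean correlated with the mean of the 10 genes at r = 0.92 over the 16 arrays and 0.96 after subtraction of group means, and at 0.92 without aorta Eln+/- replicates 2 and 4. Of the 18 genes 11 had r over 0.5 with the mean of the 10, as had 5.97% of other genes. Muc16, a mucin of the mesothelial surface, had 0.92, Nkain4 0.83, the transcription factor Bnc1 0.82, Rspo1, a Wnt activator, 0.82, and the keratin Krt8 0.75. Others went the opposite way: E-cadherin Cdh1 and the calcium-binding Calb2 had -0.51 each, and the desmosome protein Dsp -0.49.

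**Figure D5:**
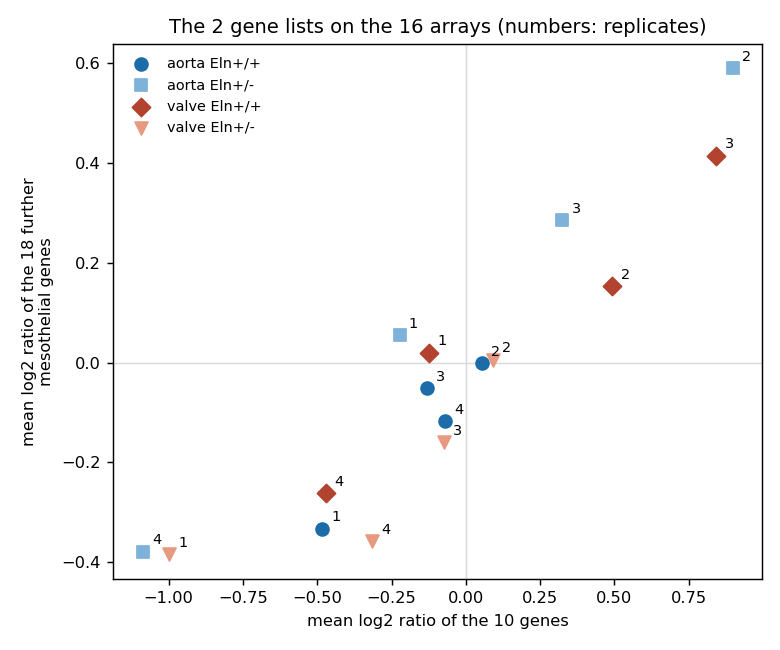
Mean log2 ratio of the 18 further mesothelial genes (vertical axis) against that of the 10 genes (horizontal axis) on 16 arrays, marked by group and replicate number. The points run along 1 line (r = 0.92), from aorta Eln+/- replicate 4 and valve Eln+/- replicate 1 at the lower end to aorta Eln+/- replicate 2 at the upper end.

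Over the whole array the genes most like the mean of the 10 genes across the 16 arrays were Igfbp6 (r = 0.92), which binds insulin-like growth factors, Muc16 (0.87), the glutathione transferase Gsta3 (0.85), Selenoi (0.85), Bnc1 (0.83), Nkain4 (0.83), Erp29 (0.82) and Igf1 (0.81). After subtraction of group means they were Muc16 (0.92), Gsta3 (0.92), Igfbp6 (0.91), Prss12 (0.87), Serp1 (0.85), Selenoi (0.85), St7 (0.85) and Was (0.84). Muc16, Gsta3, Igfbp6 and Selenoi were in both sets.

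Among the 18 further mesothelial genes, 16 were higher in Eln+/- aorta (median 0.22) and 14 lower in Eln+/- valve (median -0.28), none past the adjusted threshold. Cldn15, a tight-junction claudin, was 0.87 higher in Eln+/- aorta with a limma adjusted p of 0.885, and Bnc1 was -1.11 and Muc16 -0.69 in the valve, with 0.634 and 0.606. In the interaction 16 of the 18 were lower in valve, with a median of -0.50 and no call. Between tissues, 12 were higher in Eln+/+ valve with no call (Ezr, which links membrane to actin, stood at 1.09 with a limma adjusted p of 0.0504). In Eln+/- valve 13 were lower and 2 passed, where 7.06% of all genes passed: the keratin Krt18 fell by 1.49 and the secreted protein Rarres2 by 0.91 on the log2 scale, with limma adjusted p-values of 0.0121 and 0.0102.

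The uroplakins outside the 10, Upk1a, Upk2, Upk3a and Upk3bl, had no call in any comparison. All 4 were higher in Eln+/- valve, with a median of 0.16, the reverse of the sign of Upk1b and Upk3b. Upk1a stood at 0.48 there and Upk2 at 0.21, with limma adjusted p-values of 0.665 and 0.798. The mean of the 4 genes had r = -0.31 with the mean of the 10 genes after subtraction of group means.

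For retinoic acid, 16 of 17 listed genes were measured. No gene passed for genotype: Lrat, which stores retinol as ester, stood at -1.14, the retinol receptor Stra6 at 0.83 and the retinoic acid hydroxylase Cyp26a1 at 1.06 in the valve, with limma adjusted p-values of 0.424, 0.514 and 0.554. Between tissues 1 of the 16 passed in Eln+/+ and 3 in Eln+/-, where 1.32% and 7.06% of all genes passed. Aldh1a1, another enzyme of retinoic acid synthesis, rose by 1.69 in Eln+/+ valve (limma adjusted p 0.0309). In Eln+/- valve Cyp26a1 rose by 2.11 (0.0149), while the retinol carrier Rbp4 fell by 1.95 (0.00247) and the transglutaminase Tgm2 fell by 0.74 (0.0440).

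Of 19 genes of epicardial development and epithelial-mesenchymal transition, 14 were higher and 5 lower in Eln+/+ valve than aorta, and 5 passed, all of them higher, where 1.32% of all genes passed. In Eln+/- valve 11 were higher and 8 lower, and 4 rose and 1 fell past the threshold, where 7.06% of all genes passed. The 3 of lowest p in Eln+/+ were Tbx20 (2.98), Gata4 (2.05) and Igf2 (1.46), with limma adjusted p-values of 0.00120, 0.00846 and 0.0181. In Eln+/- they were Tbx20 (3.29), Tbx5 (3.09) and Gata4 (2.11). Tbx20, Tbx5 and Gata4 are also made by heart muscle, whose markers rose in the same comparisons. For genotype none passed: in the valve Tbx5 stood at 1.28, Zeb1, a repressor of epithelial genes, at -0.53 and the fibroblast receptor Pdgfra at -0.68.

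Genes reported as WT1 targets, 9 of 10 measured, had no call for genotype or in Eln+/+ between tissues. In the valve comparison of genotypes, in which Wt1 stood at -1.21, 4 were higher and 5 lower (median -0.03), with Igf1r at -0.53 and the survival gene Bcl2 at -0.56. In Eln+/- valve against aorta 1 of the 9 passed, where 7.06% of all genes passed: Bcl2 fell by 1.24 (limma adjusted p 0.0441). The sialomucin Podxl stood at 1.01 there, with a limma adjusted p of 0.0789. The mean of the 9 genes had r = -0.46 with the mean of the 10 genes after subtraction of group means.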

How the data were processed

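RNA was measured on Affymetrix mouse expression arrays. The submitters' processing notes name RMA, and genome build and versions are not given in the sources used here. The deposited values are a ratio on a linear scale; that the authors divided each probe set by its median over the 16 arrays was read from the values (median 1 in 39827 of 45101 probe sets, below 1 in 5274, for which the divisor is unknown and may be a floor). Such ratios keep no signal level, so no filter on dim probe sets was possible, and depth is replaced by the number of arrays, 4 per group, which limits the precision.

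Ratios were put on the log2 scale. Of the probe sets, 64 controls were left out and 45037 tested; the platform annotation gives 34945 of them 1 symbol, 932 several and 9160 none. Of a gene's probe sets, the one of highest SD across all 16 arrays stands for it. A model of 4 group means was fitted with limma 3.58.1 (lmFit and eBayes; statmod 1.5.0, R 4.3.3), leaving 12 residual degrees of freedom (prior 3.60). Two-sided p-values were adjusted by the method of Benjamini and Hochberg across all probe sets, and 0.05 was the threshold. Single members were also tested by exact permutation over 70 assignments. The fit was tested on simulated data.

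The members and lists were chosen with earlier results of these data known. Values per array are given for Wt1 and, in each comparison, the 4 genes of lowest p, 3 genes per pathway list are those of lowest p, and 8 like genes are those of highest correlation. No value is adjusted over the member list. The highest correlation between log2 profiles of any 2 arrays was 0.61, so none was a duplicate. Alternatives were other scalings, an offset of 0.1, the mean of probe sets, array weights, covariates, replicate blocks and leaving out arrays.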

Additional observations from a re-analysis of the deposited data

Results flagged for a closer look

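Within the 40 sets of 4 arrays (10 genes in 4 groups), 4 had 1 array that stood apart from the other 3 by Dixon's test at the 95% level, and chance marks about 1 in 20 such sets. Upk3b was -1.18 on aorta Eln+/+ replicate 1, where the nearest array of the group was at 0.22. Tbx18 on the same array was -0.11, against 0.51 for the nearest. Aldh1a2 was -1.23 on valve Eln+/- replicate 1, with the nearest at -0.03. Lrrn4 was -0.70 on aorta Eln+/+ replicate 3, with the nearest at 0.06.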

How the results depend on the processing

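The number of members past the threshold was unchanged for genotype in both tissues and for the interaction (0 under every alternative run), and the Tbx18 call in Eln+/- tissue held throughout. With genotype and number together as a replicate block, the count in Eln+/+ tissue was 0, since Tcf21 had a limma adjusted p of 0.106. That block joins aorta and valve arrays of the same number. By Xist minus Y those of Eln+/+ replicates 2 and 4 did not share a mouse, so the block is wrong for them. Without single arrays, and with no block, the count in Eln+/+ tissue ran from 0 to 1. In Eln+/- tissue it was 2 with array weights, as Tcf21 then passed at 0.90 (0.0424), and 1 to 2 without single arrays, Tcf21 passing at 1.01 (0.0386) without valve Eln+/- replicate 4. With the replicate number as a replicate block Wt1 stayed at -1.21 for valve genotype, with a limma adjusted p of 0.495. Same-numbered arrays correlated between -0.15 and 0.07 after group means were removed, and not every array correlated best with its own number. Such correlations cannot decide whether an aorta and a valve shared a mouse.

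The values that changed sign were small or had wide intervals. For aorta genotype, Msln was 0.0111 after centring, 0.00727 with 0.1 added, 0.0368 with array weights and 0.30 without both aorta Eln+/- replicates 2 and 4, an alternative chosen after seeing the data. Upk3b was 0.0463 with array weights and 0.30 without those 2 arrays, Krt19 0.0533 with quantile normalization and 0.26 without them, and Tcf21 -0.0215 without them. With the Xist minus Y covariate Tbx18 was -0.17 and Aldh1a2 -0.36 in the aorta, and Tcf21 0.0947 and Aldh1a2 -0.27 in the valve. With the heart muscle covariate Msln was 0.10, Upk1b 0.75, Tbx18 0.51 and Krt19 0.99 in the valve. For tissue in Eln+/-, Upk1b was -0.14 with the mean of its probe sets and Krt19 -0.00522 without both aorta arrays. For the interaction, Aldh1a2 was -0.0278 with array weights and -0.13 without both. Apart from what the alternatives themselves leave out, the cause was not tested.

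Leaving out single arrays gave, for aorta genotype, -0.0631 to 0.76 for Gpm6a, -0.27 to 0.41 for Msln, -0.39 to 0.49 for Upk3b, -0.52 to 0.48 for Upk1b, -0.46 to 0.68 for Aldh1a2, -0.34 to 0.39 for Krt19 and -0.47 to 0.40 for Lrrn4. For valve genotype it gave -0.0767 to 0.45 for Aldh1a2, -0.90 to 0.24 for Krt19 and -0.55 to 0.00606 for Lrrn4. For tissue in Eln+/+ it gave -0.19 to 0.36 for Msln, -0.82 to 0.10 for Upk3b, 1.14 to 1.43 for Tcf21 and -0.15 to 0.40 for Lrrn4. For tissue in Eln+/- it gave -0.79 to 0.0392 for Gpm6a, -0.40 to 0.60 for Upk1b, 0.66 to 1.01 for Tcf21, -0.77 to 0.37 for Aldh1a2, -0.14 to 0.89 for Krt19 and -0.54 to 0.32 for Lrrn4. For the interaction it gave -0.54 to 0.59 for Aldh1a2, -0.87 to 0.28 for Krt19 and -0.68 to 0.19 for Lrrn4. Among the recomputed values of single genes, 867 kept their direction and side of the threshold and 76 changed sign. The median over the 10 genes changed sign for aorta genotype (-0.24 and -0.11 without aorta Eln+/- replicate 2 or 3, and -0.18 with the Xist minus Y covariate), for valve genotype (0.0443 with the heart muscle covariate) and for tissue in Eln+/- (0.18 without aorta Eln+/- replicate 2).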
